A study of Danio rerio with 6 samples.

Results

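The genes described here are 108 zebrafish genes whose names place them in families of transcription factors, out of 31540 genes in the count table. They were chosen by name alone from the gene table published with the study. Every gene was taken whose symbol there starts with znf, zbtb, klf, sox, fox, gata, tbx, lhx, hox, ets, stat or irf and then a digit, with 1 letter before the digit for fox and hox, and foxl2 was left out. That table has a sheet of all genes, of which 1998 rows were at hand, a sheet of genes higher in PV follicles, of which 1998 rows were at hand, and a sheet of 859 genes lower in PV follicles. Of the 108 genes, 52 were named by the higher sheet only, 10 by the lower sheet and 46 by the kept rows of the sheet of all genes. The gene znf516 and the gene hoxc12a stood in both the sheet of all genes and the higher sheet. The higher and lower sheets were selected on the same PV and PG libraries that are described here, so for the 62 genes known only from them the direction of change was fixed by the choice. Their values are given below as a description, with no test. The 46 genes of the sheet of all genes follow the order of the count table and not that of any result, so a test can be given for them.

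The follicles came from wild type (WT) zebrafish of the AB strain, and the ages of the fish were not given in the sources used here. PV follicles are previtellogenic follicles, the first stage of secondary growth, and they gave 3 libraries. PG follicles are in primary growth, the stage before, and they gave 3 libraries as well. According to the methods each library was made from follicles pooled from 3 fish, so no value belongs to a single animal. Both stages were taken from the same 3 pools, and whether a replicate number marks the same pool in both was not given. The p-values measure the spread between these libraries. The libraries held 14492086 to 36603108 counts each, with the fewest in PG replicate 3.

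Transcription factors bind DNA and set which genes of a cell are transcribed. The znf and zbtb proteins carry zinc fingers, and the zbtb proteins also carry a BTB domain through which they pair and recruit corepressors. The klf proteins bind GC-rich and CACCC elements, the sox proteins bend DNA through an HMG box, and the fox proteins bind through a forkhead domain. The gata proteins read GATA motifs, the tbx proteins carry a T-box, lhx and hox proteins carry homeodomains, and stat and irf proteins carry cytokine and interferon signals to the genome. In the vertebrate ovary both the oocyte and the follicle cells around it depend on members of these families. An ovarian follicle is a mixture of an oocyte, follicle cells, theca, vessels and blood. In such bulk samples, fewer cells of a type and less RNA per cell cannot be told apart.

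Marker genes of several cell types differed between the stages. The 8 follicle cell markers in the table summed to 1420 to 1693 normalized counts in PV libraries, against 83.0 to 139 in PG libraries. All 6 that could be tested were called higher in PV follicles, beside 13.2% of all tested genes. The study itself reports fshr, cyp19a1a, amh, inha and inhbaa as higher in PV follicles from these libraries. Nothing is therefore read from this count. The 8 oocyte markers summed to 78519 to 82759 in PV libraries and to 175016 to 186708 in PG libraries, with 3 called lower and 0 higher (1 at an unadjusted p under 0.05, 0 by DESeq2). That sum was carried by zp3b, buc and zar1, at log2 fold changes of −1.36, −1.08 and −1.70, while the list's median was −0.42. The genes figla (−0.69), gdf9 (−0.05), bmp15 (−0.16), dazl (0.04) and ddx4 (0.29) were not called. Of these, figla and bmp15 were lower by adjusted p alone (5.62e-06 and 0.0164 by edgeR) and ddx4 was higher (0.00038 by edgeR). Endothelial markers summed to 494 to 586 in PV libraries and 209 to 329 in PG libraries, and 4 of 5 tested were called higher. Markers of early meiotic germ cells summed to 375 to 443 in PV libraries and 1176 to 1274 in PG libraries, with 3 of 4 tested called lower and dmc1 at 0 in every library. Erythroid markers summed to 157 to 401 in PV libraries and 603 to 843 in PG libraries. Of 3 tested, hbaa1 (−1.37) and hbba1 (−1.23) were called lower and alas2 (−0.37) was not. Blood and immune markers overlapped, at 367 to 400 in PV libraries and 359 to 433 in PG libraries. The part of these cell types in the values below was not tested.

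Normalized counts, as deposited, are scaled between libraries but not corrected for gene length, so levels are compared between stages and not between genes. Fold changes are log2 values of PV over PG from edgeR with its standard error (SE), so a positive value is higher in PV follicles. A gene was called where its Benjamini-Hochberg adjusted p over all tested genes was 0.05 or less and its log2 fold change was at least 1 in size. Of 15899 genes with enough counts to be tested, 13.2% were called higher in PV follicles and 5.97% lower, and the median log2 fold change was 0.03.

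Of the 108 family genes, 80 could be tested, 51 were called higher in PV follicles and 10 lower. Most of this follows from the sheets: 49 of 49 tested genes named only by the higher sheet were called higher, and 10 of 10 genes of the lower sheet were called lower. Nothing is read from these counts. The 28 genes that could not be tested had at most 27 counts in any library, and 11 of them were at 0 in all 6 libraries. All 11 were named by the sheet of all genes. The genes nearest to the threshold inside the sheets were znf296, at 1.01, and sox19b, at −1.01. The nearest below it, all from the sheet of all genes, were hoxc11a, at 0.71, foxo3a and stat2, both at 0.70, and znf1175, at −0.88. The genes klf5a, at 1.40, and klf17, at 1.33, lay above it but were not in the kept rows of the higher sheet.

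**Figure D1:**
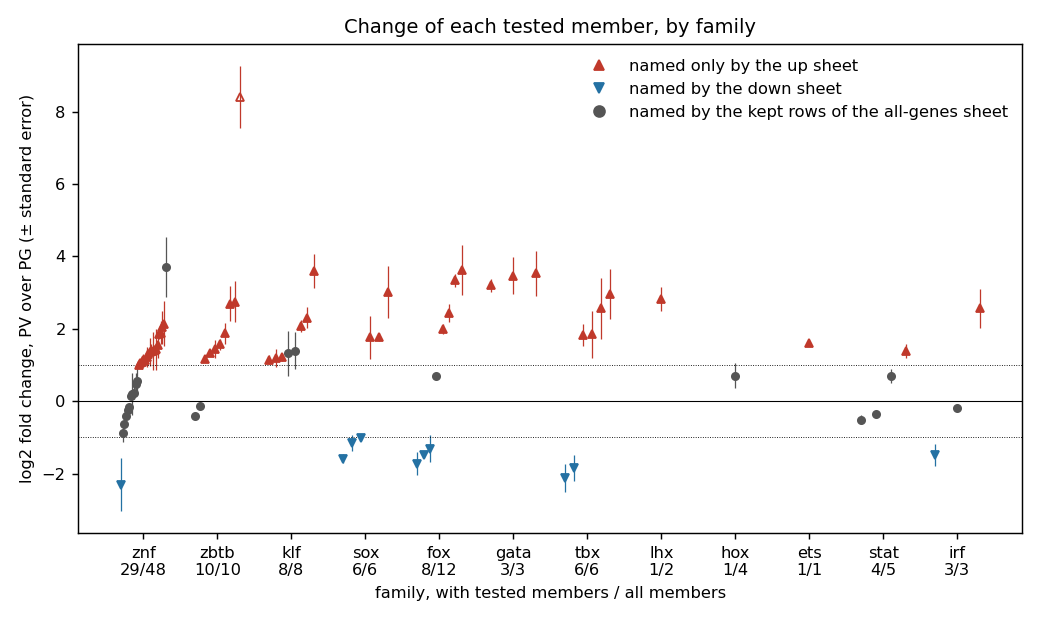
Log2 fold changes (PV over PG, edgeR) of the 80 tested genes by family, with bars for the SE, triangles for genes named by the higher sheet only or by the lower sheet and circles for genes named by the sheet of all genes. The gata genes lie between 3.21 and 3.53, while sox, fox and tbx genes lie on both sides of 0, and the open symbol is zbtb7c, whose PG libraries are at 0 and whose fitted value is no bound.

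For the genes of the sheet of all genes the choice by name did not fix the direction. Of 46, 21 could be tested and 2 were called higher, znf516 and klf5a, beside 13.2% of the tested genes of the same kept rows. Both passed the filter on low counts only through their PV libraries, where they are high, so their values are given as a description, and with at least 10 counts in every library 0 were called. None was called lower, with 8 lower at an unadjusted p under 0.05 and 0 by DESeq2, beside 5.98% of the kept rows. By adjusted p alone, 4 were higher and 7 lower, beside 34% and 28% of the kept rows and 32.7% and 29.9% of all tested genes, and 10 passed in neither direction. Their median log2 fold change was 0.16, and that of the kept rows was 0.05. In 6 of the 21 every PV library lay above every PG library, and in 9 every PV library lay below, beside 38.2% and 32.1% of the kept rows and 36.5% and 32.9% of all tested genes. The 4 higher by adjusted p alone include znf516 and klf5a. The 6 include these genes and klf17, whose PG libraries alone would not have passed the filter. The higher counts and the median are therefore a description.

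Small changes among these genes depend on the scaling. Dividing by the library total alone, in place of the trimmed mean of M values, moved the median of all tested genes by 0.42. Under that scaling 17 of the 21 fold changes were positive, against 11, and 14 were higher and 1 lower by adjusted p alone, beside 58.2% and 10.9% of all tested genes. Each direction given below for a change of less than 0.42 in size is therefore relative to the median gene.

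**Figure D2:**
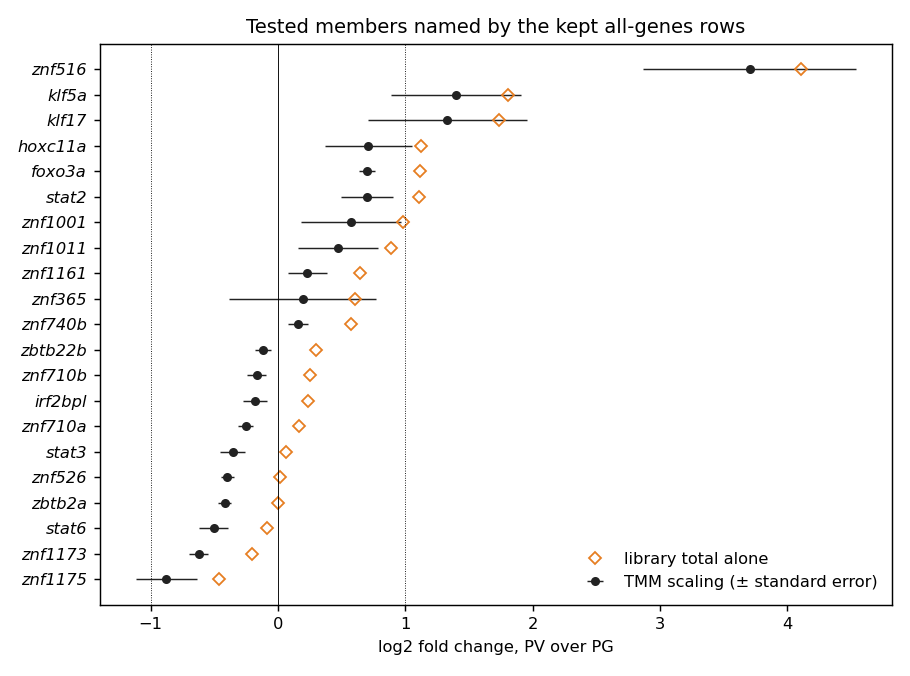
Log2 fold changes (PV over PG) of the 21 tested genes named by the sheet of all genes, as fitted with edgeR after TMM scaling, with bars for the SE, and as fitted after scaling by the library total alone. Every gene moves up by about the same amount under the library total, which takes znf526, znf710a, znf710b, zbtb22b, stat3 and irf2bpl across 0.

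The GATA family had the highest median of the families with more than 1 tested gene, at 3.46. Its 3 genes were named by the higher sheet only, while other families also hold genes of the other sheets. This rank was therefore set by the choice, and nothing is read from it. GATA factors of this subgroup act in heart and gut, and in mammals Gata4 and Gata6 are expressed in granulosa cells. The gene gata4 had 51.0, 55.4 and 51.3 normalized counts in PV libraries 1 to 3, against 6.33, 5.33 and 0 in PG libraries 1 to 3, a log2 fold change of 3.46 (SE 0.51). The gene gata5 had 63.6, 59.2 and 73.9 in PV libraries and 11.3, 0 and 3.61 in PG libraries, at 3.53 (SE 0.63). The gene gata6 was the most abundant by counts, with 309, 289 and 254 in PV libraries and 37.3, 24.9 and 27.1 in PG libraries, at 3.21 (SE 0.18). No PV library overlapped a PG library in any of them, in a direction that the higher sheet had fixed. In 36.5% of all tested genes every PV library lay above every PG library. The PG values of gata4 and gata5 rest on few counts, and without PG replicate 1 the value of gata5 was 5.61.

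Set against the follicle cell markers of the same library, the gata genes were not higher in PV follicles. Together they gave 25.3, 25.1 and 26.8 counts per 100 counts of the 6 tested follicle cell markers in PV libraries, against 45.6, 23.8 and 37.0 in PG libraries, so that the stages overlapped. For gata6 alone the values were 18.4, 17.9 and 18.0 in PV libraries and 31.0, 19.6 and 32.6 in PG libraries, all lower in PV. These ratios do not depend on the scaling between libraries. The 6 markers themselves rose by 2.90 to 5.98 and had few counts in PG libraries. A gene that rises less than their sum must give a lower ratio in PV libraries. The ratios are therefore a description, and nothing is read from them. The reference gene names list 8 gata genes in the table, of which 5 were tested. The other tested ones, gata2b and GATA2, had −0.11 and −0.72 and were not called.

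Forkhead genes lay on both sides of 0. Of 12, 4 were named only by the higher sheet, 3 by the lower sheet and 5 by the sheet of all genes, of which 1, foxo3a, could be tested. The FoxO factors are held out of the nucleus by PI3K and Akt signalling, and in mice Foxo3 keeps primordial follicles dormant. The gene foxo3a had 2089, 2272 and 2038 normalized counts in PV libraries and 1282, 1257 and 1401 in PG libraries. It rose by a log2 fold change of 0.70 (SE 0.06, adjusted p = 5.61e-06 by edgeR), below the threshold of 1 and with no overlap between stages, and stood at 1.12 under the library total. Its paralogue foxo3b had 152, 176 and 137 in PV libraries and 38.7, 19.5 and 23.5 in PG libraries, at 2.44 (SE 0.26). The third, foxo1a, had 363, 369 and 336 in PV libraries and 97.1, 97.7 and 63.2 in PG libraries, at 1.99 (SE 0.15).

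The balance of the FoxO genes within a library differed between the stages. Per 100 counts of foxo3a, PV libraries held 7.25, 7.76 and 6.70 counts of foxo3b, against 3.02, 1.55 and 1.68 in PG libraries. For foxo1a the values were 17.4, 16.3 and 16.5 in PV libraries and 7.57, 7.77 and 4.51 in PG libraries. Since foxo3b and foxo1a were chosen for being higher, these ratios are a description. Relative to the follicle cell markers foxo1a was lower in PV libraries, at 21.7, 23.0 and 23.8 per 100 marker counts, against 80.7, 76.9 and 76.1 in PG libraries. Those markers rose by 2.90 to 5.98, more than foxo1a, so this ratio was bound to be lower and is a description.

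The largest forkhead values were those of foxa1 and foxp4. The repressor foxp4 had 398, 478 and 497 in PV libraries, against 46.5, 55.1 and 25.3 in PG libraries, at 3.34 (SE 0.19). The gene foxa1, a pioneer factor of endoderm, had 26.7, 21.4 and 27.8 in PV libraries and 2.82, 0 and 3.61 in PG libraries, at 3.62 (SE 0.70), and it stood at 2.99 without PG replicate 2. Neither gene overlapped between stages, in a direction that the higher sheet had fixed.

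On the lower side stood a gene that the published table calls FOXR2 and the reference names call foxr1, a maternal-effect gene in zebrafish. It had 491, 462 and 489 normalized counts in PV libraries and 1361, 1354 and 1336 in PG libraries, at −1.49 (SE 0.06). The spread within a stage was small beside this difference, with SDs of 15.7 in PV and 12.9 in PG libraries. Per 100 counts of znf526 it gave 34.1, 31.0 and 32.0 in PV libraries and 69.5, 70.5 and 67.0 in PG libraries, a description, since foxr1 was chosen for being lower. The forebrain factor foxg1a had 23.6, 25.2 and 14.8 in PV libraries and 61.9, 61.3 and 88.4 in PG libraries, at −1.72 (SE 0.31). The gene foxl1 had 19.6, 15.1 and 13.0 in PV libraries and 33.1, 53.3 and 32.5 in PG libraries, at −1.31 (SE 0.37). After scaling by the library total foxl1 was at −0.90.

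Sox genes were split evenly. All 6 came from the selected sheets, 3 from each. The SoxD genes sox13 and sox6 act as partners of other Sox proteins. Of these, sox13 had 1493, 1785 and 1454 normalized counts in PV libraries and 511, 439 and 413 in PG libraries, at 1.78 (SE 0.10). The SoxE gene sox9a, a factor of cartilage and gonads, had 43.2, 34.0 and 20.9 in PV libraries and 5.63, 0 and 7.22 in PG libraries, at 3.02 (SE 0.73), and at 2.37 without PG replicate 2. Its relative sox8b, also SoxE, went the other way, with 91.1, 79.4 and 67.8 in PV libraries and 180, 217 and 119 in PG libraries, at −1.14 (SE 0.22).

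The most abundant sox gene by counts was sox19b, a SoxB1 gene known as a maternal factor of the zebrafish egg. It had 1892, 1958 and 2144 in PV libraries and 4025, 4097 and 3926 in PG libraries, at −1.01 (SE 0.05), and the stages were far apart. The SoxC gene sox4b had 126, 115 and 142 in PV libraries and 375, 346 and 440 in PG libraries, at −1.58 (SE 0.12). Per 100 counts of sox19b, sox13 gave 78.9, 91.2 and 67.8 in PV libraries and 12.7, 10.7 and 10.5 in PG libraries. The sheets had fixed the direction of both genes, so this ratio is a description. Under the library total sox19b was at −0.59 and sox8b at −0.73, below the fold threshold.

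**Figure D3:**
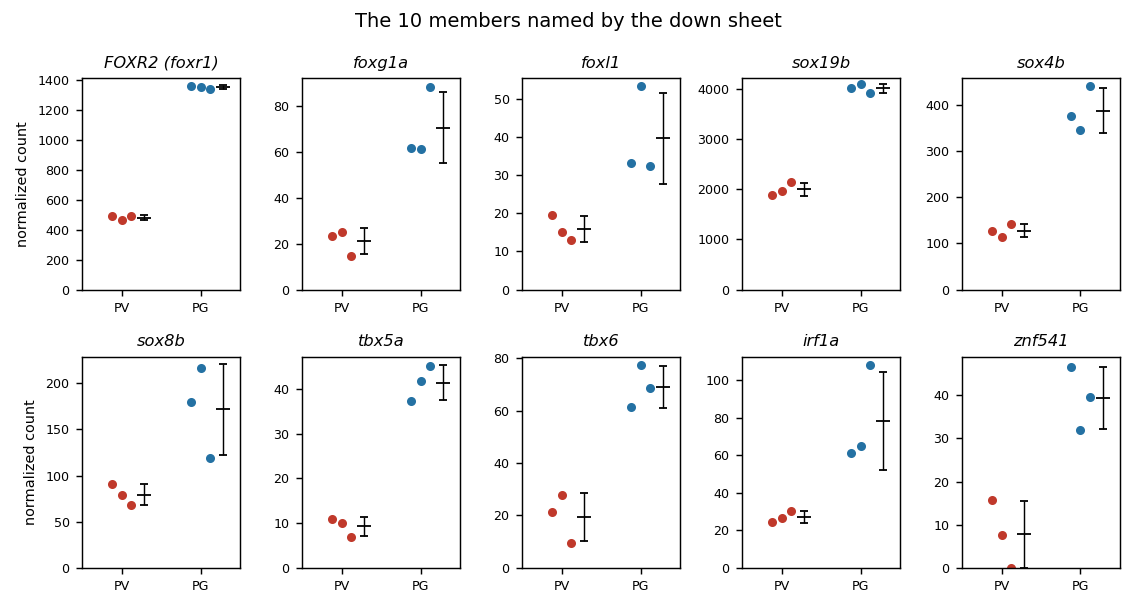
Normalized counts of the 10 genes named by the lower sheet in each library, PV at the left and PG at the right, with dots for libraries and black marks for the mean ± SD of 3. In every panel each PV library lies below each PG library, a direction that the sheet had fixed, beside 32.9% of all tested genes.

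T-box genes were split too, with 4 from the higher sheet and 2 from the lower. The heart factor tbx20 had 73.0, 61.7 and 73.0 normalized counts in PV libraries and 19.7, 24.9 and 10.8 in PG libraries, at 1.83 (SE 0.31). The paralogues tbx2a and tbx2b, transcriptional repressors that act in heart and eye development, were both scarce. The gene tbx2a had 18.1, 20.2 and 34.8 in PV libraries and 5.63, 1.78 and 0 in PG libraries, at 2.95 (SE 0.69), and at 4.26 without PG replicate 1. The gene tbx2b had 32.2, 26.5 and 21.7 in PV libraries and 10.6, 0 and 0 in PG libraries, at 2.57 (SE 0.85). All PG counts of tbx2b lay in PG replicate 1, without which the value was 7.72, and it was no longer called without PG replicate 2, at 1.99, or without PV replicate 1, 2 or 3, at 2.44, 2.61 and 2.73.

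The lower T-box genes are known from the embryo. The heart and fin factor tbx5a had 11, 10.1 and 6.96 in PV libraries and 37.3, 41.7 and 45.1 in PG libraries, at −2.13 (SE 0.38). The paraxial mesoderm factor tbx6 had 21.2, 27.7 and 9.56 in PV libraries and 61.2, 77.3 and 68.6 in PG libraries, at −1.85 (SE 0.36). In both genes the stages did not overlap, in a direction that the lower sheet had fixed.

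All 8 Krüppel-like factors could be tested and 7 were called higher in PV follicles, of which 6 were named only by the higher sheet. That sheet had fixed the direction of the 6, so nothing is read from this count, beside 13.2% of all tested genes. The metabolic regulator klf15 had 82.4, 85.7 and 75.6 normalized counts in PV libraries and 6.33, 10.7 and 0 in PG libraries, at 3.60 (SE 0.47). The gene klf11b, whose mammalian counterpart is induced by TGF-β, had 577, 552 and 616 in PV libraries and 137, 174 and 84.8 in PG libraries, at 2.08 (SE 0.17). The paralogues klf2a and klf2b, which in endothelium answer to blood flow, had similar values. The gene klf2a had 232, 248 and 252 in PV libraries and 106, 102 and 105 in PG libraries, at 1.22 (SE 0.12). The gene klf2b had 78.5, 101 and 96.5 in PV libraries and 33.8, 52.4 and 32.5 in PG libraries, at 1.19 (SE 0.25). Their ratio within a library averaged 37.6 ± 3.41 in PV and 38.0 ± 11.5 in PG libraries, in counts of klf2b per 100 of klf2a (SD, n = 3 each). Of the 5 tested endothelial markers 4 were called higher in PV follicles, and kdrl, at 0.49, was not. The part of such cells in the klf2a and klf2b values was not tested.

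Among the klf genes of the sheet of all genes, klf5a was called and klf17 was not. The gene klf5a had 12.6, 15.1 and 20.0 in PV libraries and 7.04, 6.22 and 3.61 in PG libraries, at 1.40 (SE 0.51). It rests on 16, 12 and 23 counts in PV libraries and 10, 7 and 2 in PG libraries, and the call was lost in DESeq2, without the filter on low counts, with the replicate number as a block, at 1.39, and when any 1 of the 6 libraries was left out, at 1.20 to 1.59. The gene klf17 had 22.8, 29.0 and 29.6 in PV libraries and 14.1, 14.2 and 0 in PG libraries, at 1.33 (SE 0.62). With 0 counts in PG replicate 3, its PG libraries alone would not have passed the filter on low counts, so its values are a description.

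**Figure D4:**
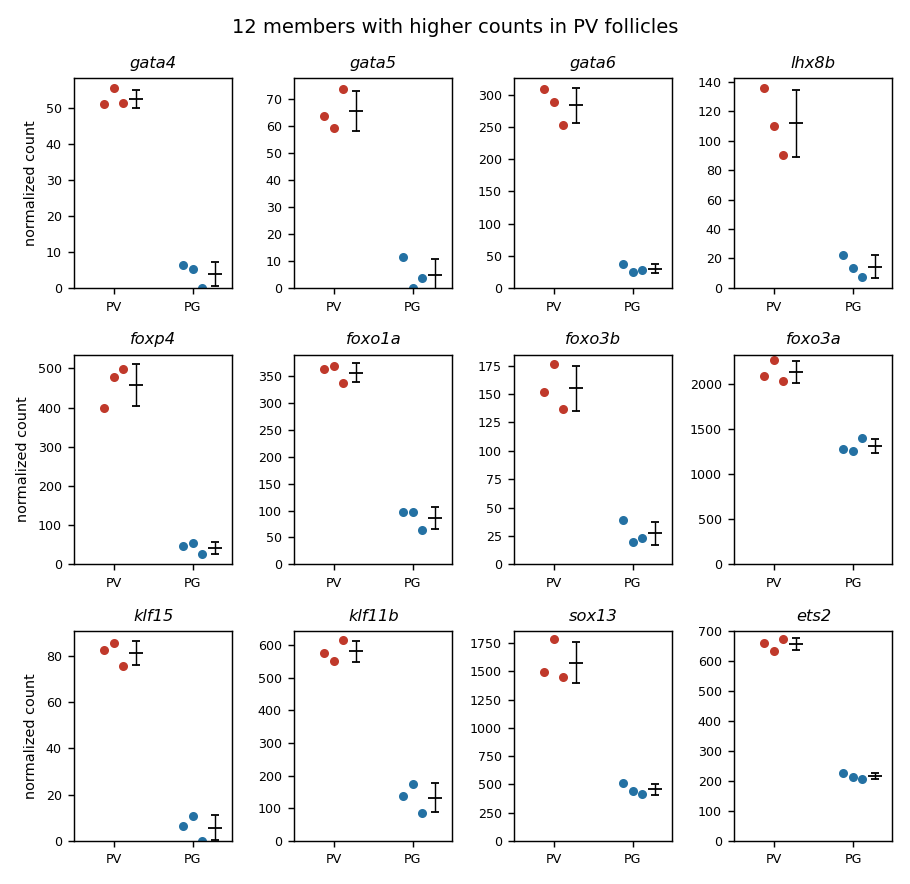
Normalized counts of 12 genes with higher values in PV follicles in each library, PV at the left and PG at the right, with dots for libraries and black marks for the mean ± SD of 3. All but foxo3a were named only by the higher sheet, which had fixed their direction. In every panel each PV library lies above each PG library, which held for 36.5% of all tested genes. The gene foxp4 lies at 398 to 497 in PV and 25.3 to 55.1 in PG libraries.

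The largest family by name was znf, with 48 genes. Of these, 19 were named only by the higher sheet, 1 by the lower sheet and 28 by the sheet of all genes. It was also the family with the most silent genes, with 9 at 0 in every library. Of the 29 tested, 18 were called higher and 1 lower, at a median of 1.14, beside 13.2% and 5.97% of all tested genes. Most of these directions were fixed by the selected sheets, so nothing is read from the counts. Of the 11 tested from the sheet of all genes 1, znf516, was called higher, and their median was 0.16. Apart from znf516, the tested genes of the higher sheet lay between 1.01, in znf296, and 2.14, in znf1008.

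The gene znf576.1 had 1596, 2027 and 1766 normalized counts in PV libraries and 707, 664 and 639 in PG libraries, at 1.41 (SE 0.09). The genes znf592 and znf687a, whose human counterparts sit in 1 complex with ZMYND8, were at 1.31 (SE 0.08) and 1.14 (SE 0.16), and they were picked for mention after their values were seen. The paralogues znf319a and znf319b both stood at 1.07, with SEs of 0.10 and 0.17. In znf319a the counts were 619, 656 and 559 in PV libraries and 304, 311 and 245 in PG libraries. In znf319b they were 170, 209 and 149 in PV libraries and 93.6, 73.7 and 79.4 in PG libraries.

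The scarce znf genes gave less certain values. The gene znf516, named by both the sheet of all genes and the higher sheet, had 44.0, 36.5 and 25.2 in PV libraries and 0, 7.11 and 0 in PG libraries, at 3.71 (SE 0.84). All its PG counts were in PG replicate 2, and without that library the fitted value was 8.19. The gene znf1008 had 25.1, 13.9 and 25.2 in PV libraries and 4.22, 1.78 and 10.8 in PG libraries, at 2.14 (SE 0.63). The single znf gene of the lower sheet was znf541, which in mice is a gene of meiotic spermatocytes. It had 15.7, 7.56 and 0 in PV libraries and 46.5, 32.0 and 39.7 in PG libraries, at −2.30 (SE 0.73). The value was −3.56 without PV replicate 1 and −1.70 without PV replicate 3. The early meiotic markers are given above, and the part of such cells in the znf541 value was not tested.

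Of the znf genes of the sheet of all genes, 4 were lower by adjusted p alone and none of them passed the fold threshold. The gene znf526 had 1439, 1493 and 1526 in PV libraries and 1957, 1920 and 1994 in PG libraries, at −0.40 (SE 0.05, adjusted p = 7.46e-05 by edgeR). The gene znf710a had 1147, 1135 and 1023 in PV libraries and 1318, 1328 and 1289 in PG libraries, at −0.25 (SE 0.06, adjusted p = 0.00474 by edgeR). These directions hold relative to the median gene, since under the library total znf526 was at 0.017 and znf710a at 0.16. Its paralogue znf710b stood at −0.17 (SE 0.07, adjusted p = 0.0715 by edgeR), with 682, 730 and 817 in PV libraries and 821, 830 and 852 in PG libraries, and at 0.25 under the library total. The other 2 were znf1173, at −0.62 (adjusted p = 4.66e-05 by edgeR), and znf1175, at −0.88 (adjusted p = 0.00891 by edgeR), which stayed below 0 under the library total, at −0.21 and −0.46.

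The numbered znf genes differed from the rest of their family in how many were detected. Of 26 with a number of 900 or more, 9 were at 0 everywhere, 8 could be tested and 3 were called, all higher. Of the other 22, 21 could be tested, 15 were called higher and 1 lower. The sheet of all genes named 21 of the 26 and 7 of the 22. It held 0 of the 3 and 1 of the 15 higher calls, and the direction of the rest was fixed by the selected sheets. Nothing is therefore read from these calls, beside 13.2% higher and 5.97% lower of all tested genes. The split was chosen after the values were seen and was not tested. Reads shared between near-identical copies could be split in counting, so values of numbered genes are uncertain.

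The zbtb genes could all be tested, and 8 of 10 were named only by the higher sheet. The abundant zbtb18, a transcriptional repressor that acts in brain development, had 1178, 1404 and 1254 normalized counts in PV libraries. In PG libraries it had 517, 603 and 578, at a log2 fold change of 1.17 (SE 0.08). The gene zbtb7c had 46, 34 and 47 raw counts in PV libraries and 0 in each PG library, which is at least 11.8-fold higher in PV follicles against a floor of 3 counts per PG library, a floor that covers counting error only. The other 6 of the higher sheet lay between 1.35, in zbtb8b, and 2.75, in zbtb20. Both genes of the sheet of all genes stood below 0. The gene zbtb2a had 1706, 1663 and 1786 in PV libraries and 2328, 2232 and 2327 in PG libraries, at −0.42 (SE 0.05, adjusted p = 4.91e-05 by edgeR), and at −0.00 under the library total. The gene zbtb22b stood at −0.12 (SE 0.06, adjusted p = 0.117 by edgeR), and at 0.29 under the library total. Per 100 counts of zbtb2a, zbtb18 gave 69.1, 84.4 and 70.2 in PV libraries and 22.2, 27.0 and 24.8 in PG libraries. As zbtb18 was chosen for being higher, this ratio is a description.

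Interferon and cytokine factors differed in direction. The interferon transducer stat1a, from the higher sheet, had 382, 382 and 349 normalized counts in PV libraries and 164, 162 and 81.2 in PG libraries, at 1.38 (SE 0.19). Its partner stat2, from the sheet of all genes, had 80.9, 92.0 and 81.7 in PV libraries and 54.9, 56.9 and 41.5 in PG libraries, and it rose by 0.70 (SE 0.20, adjusted p = 0.0132 by edgeR). The cytokine factor stat3 had 356, 427 and 337 in PV libraries and 476, 488 and 458 in PG libraries, at −0.36 (SE 0.09, adjusted p = 0.00791 by edgeR) and at 0.059 under the library total. The gene stat6, which answers to interleukin 4 in mammals, stood at −0.50 (SE 0.11, adjusted p = 0.00323 by edgeR) and at −0.09 under the library total. Within a library, stat1a gave 107, 89.4 and 103 counts per 100 of stat3 in PV libraries and 34.5, 33.2 and 17.7 in PG libraries. This ratio is a description, since stat1a was chosen for being higher. The second copy, stat1b, was not tested, with 27, 0 and 13 raw counts in PV libraries and 11, 0 and 0 in PG libraries.

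The irf genes went both ways. The gene irf8, which zebrafish macrophages need, had 53.4, 47.9 and 71.3 in PV libraries and 14.1, 10.7 and 0 in PG libraries, at 2.56 (SE 0.53). The gene irf1a, an interferon response factor, had 24.3, 26.5 and 30.4 in PV libraries and 61.2, 64.8 and 108 in PG libraries, at −1.49 (SE 0.30). Neither overlapped between stages, in directions that the sheets had fixed. The summed blood and immune markers overlapped, with single markers from −1.77, in lyz, to 0.87, in lcp1. The part of such cells in the irf values was not tested. None of the 7 blood and immune markers was called (1 lower at an unadjusted p under 0.05, 0 by DESeq2). The gene coro1a, at −0.52, was lower by adjusted p alone (0.0215 by edgeR). The third name, irf2bpl, is an IRF2 binding protein-like gene and not an interferon regulatory factor, and it stood at −0.18 (SE 0.09, adjusted p = 0.127 by edgeR) and at 0.24 under the library total.

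The remaining families had few genes at measurable levels. The gene ets2, an ETS factor downstream of MAP kinases, had 663, 636 and 674 normalized counts in PV libraries and 227, 214 and 208 in PG libraries, at 1.60 (SE 0.08). The gene lhx8b, whose mouse counterpart Lhx8 acts in oocytes, had 136, 110 and 90.4 in PV libraries and 22.5, 13.3 and 7.22 in PG libraries, at 2.81 (SE 0.33). Its relative lhx6 had at most 6 raw counts in a library and was not tested. Of 4 hox genes, only hoxc11a could be tested, with 40.0, 52.9 and 50.4 in PV libraries and 17.6, 37.3 and 34.3 in PG libraries, at 0.71 (SE 0.34, adjusted p = 0.0960 by edgeR). The gene hoxc12a had 12, 5 and 10 raw counts in PV libraries and 0 in each PG library, at least 2.40-fold higher in PV follicles against the same floor, and hoxd10a had 23, 5 and 10 in PV libraries and 5, 0 and 0 in PG libraries.

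Since the published sheets select genes, the families were also described in full. The reference gene-name table lists 528 genes of the count table under the same name rule, 96 of the 108 among them. Of these, 93 were at 0 in every library, 286 could be tested, 60 were called higher in PV follicles (21.0%) and 13 lower (4.55%), beside 13.2% and 5.97% of all tested genes. The median was 0.11, against 0.03 for all tested genes. Only counts and medians are given, and no family was tested against another.

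The shares of single families are given beside 13.2% higher and 5.97% lower of all tested genes, with no test between families. Genes such as gata4, klf15, klf5a and tbx2a passed the filter on low counts only through their PV libraries, where they are high. The higher shares are therefore a description. With at least 10 counts in every library, where fewer genes are tested, the 60 higher calls of all families became 31. Of 19 tested klf genes 8 were called higher (42.1%) and 0 lower, with a median of 1.13, and DESeq2 called 6 higher. Lower was 1 at an unadjusted p under 0.05, 1 by adjusted p alone and 0 by DESeq2 with both thresholds. Of 5 gata genes 3 were called higher and 0 lower (0 at an unadjusted p under 0.05, 0 by DESeq2), at a median of 3.21. Of 7 tbx genes 4 were called higher and 2 lower, so that 1 was left uncalled. Of 39 zbtb genes 10 were called higher (25.6%) and 0 lower, at a median of 0.28. Lower were 7 at an unadjusted p under 0.05, 6 by adjusted p alone and 0 by DESeq2 with both thresholds.

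Of 133 tested znf genes 22 were called higher (16.5%) and 3 lower (2.26%), at a median of 0.06, beside 13.2% and 5.97% of all tested genes. Of 14 sox genes 3 were called in each direction (21.4%), and of 31 fox genes 5 were called higher (16.1%) and 3 lower (9.68%), at medians of −0.03 and −0.21. Of 14 irf genes, the binding proteins included, 1 was called in each direction, and of 7 stat genes 1 was called, higher in PV follicles. Of 12 hox genes 0 were called higher (0 at an unadjusted p under 0.05, 1 by DESeq2) and 1 lower, hoxc11b, at −1.07. Of 3 lhx genes 1 was called, lhx8b. Both tested ets genes were called, and the one outside the 108 was ETS1, at 1.56.

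**Figure D5:**
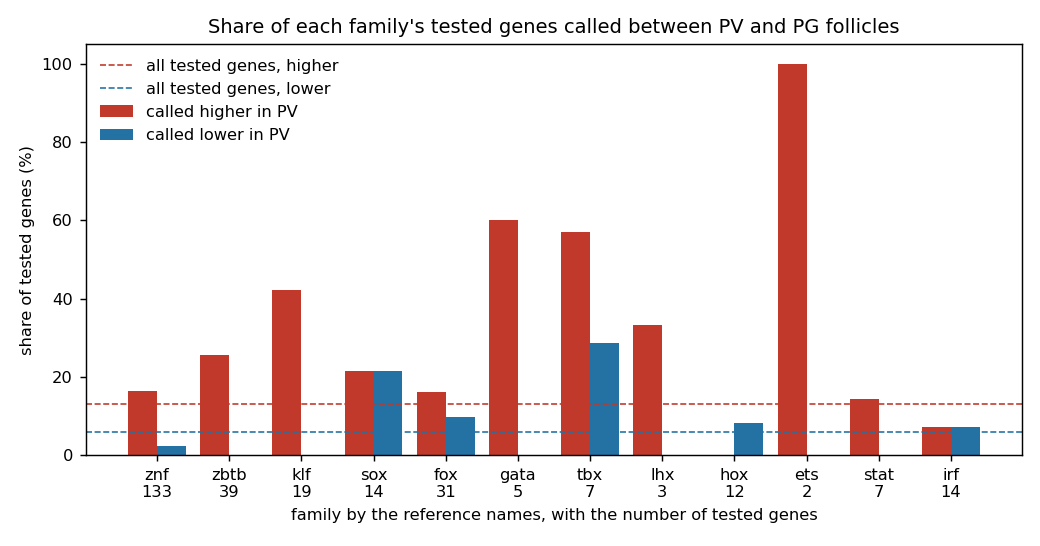
Share of tested genes called higher (red) and lower (blue) in PV follicles for each family by the reference names, in percent, with the number of tested genes under each name and dashed lines for all tested genes. The klf family reaches 42.1% higher and the znf family 16.5%, beside 13.2% of all tested genes, while the families with fewer than 10 tested genes rest on few genes. Some genes called higher passed the filter on low counts only through their PV libraries.

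Among the reference list, 13 called genes were not among the 108. The largest were znf469, at 3.50, znf271, at 2.40, and an entry named ZNF362, at 2.34, with foxl2l at 1.37. Another entry named ZNF362 was at −0.28 and was not called. Numbered znf genes of 900 or more made up 157 of the 264 znf genes, 69 of them at 0 everywhere, and of 37 tested 4 were called higher (10.8%) and 2 lower (5.41%). Of the other 107, 4 were at 0 everywhere, and of 96 tested 18 were called higher (18.8%) and 1 lower (1.04%).

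A list of 15 transcription factors known from the vertebrate ovary was set beside the families. Of the 15, 6 were matched by name and 5 tested. Not matched were nobox, lhx8a, sohlh1, foxl2a, foxl2b, nr5a1a, nr5a1b, wt1a and sox9b, so nothing is said of them here. The study itself lists nr5a1a, nr5a1b and foxl2 among follicle cell genes that rose in PV follicles. Of the 5 genes of the list that were tested, none was called higher (0 at an unadjusted p under 0.05, 0 by DESeq2). Called lower was 1 of the 5, wt1b, at −1.18, beside 13.2% higher and 5.97% lower of all tested genes. The oocyte factors figla and taf4b stood at −0.69 and −0.66, lower by adjusted p alone (5.62e-06 and 1.15e-05 by edgeR). The genes dmrt1 and sox3 stood at 0.16 and 0.04.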

How the data were processed

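RNA of 6 follicle libraries, 3 PV and 3 PG, was sequenced. According to the labels and methods the authors aligned reads to GRCz10 using TopHat2, with transcript assembly by StringTie, and the deposited raw counts per Ensembl gene came from its prepDE script. Normalized counts, a signal that is each raw count over a single DESeq2 size factor for its library, were deposited too. The library kit is named differently in the labels and the methods and strand use in counting is not given in the sources used here, so genes that overlap or run antisense cannot be told apart. The authors' columns of fold changes and p-values were not used.

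Raw counts were fitted with edgeR 4.0.16 (quasi-likelihood, R 4.3.3, TMM scaling, filterByExpr with a minimum count of 10 and a minimum total of 15) with stage as the only term. P-values were adjusted over 15899 genes. The script was tested on simulated data. DESeq2 1.42.0, other scalings, other filters, a replicate block and leaving out each library were tried as alternatives. Libraries held 14492086 to 36603108 counts, and genes of a few counts carry the widest errors. Coordinates are not given, because the annotation used for names and neighbours, GRCz12tu, differs from the build of the files.

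Members and lists were chosen with earlier results of these data known. Named were every gene of the lower sheet, every called gene of the sheet of all genes, every gene of families of at most 3 and of paralogue pairs ending in a and b, and per family and sheet the gene of largest change and that of highest count. Other genes given with values (foxo1a, znf296, znf592, znf687a, znf1173, znf1175, zbtb8b, zbtb20, zbtb22b, stat6, hoxc12a, hoxd10a and the called genes outside the 108) were chosen after their values were seen.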

Additional observations from a re-analysis of the deposited data

How the results depend on the processing

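Of 594 comparisons of 47 tested named genes with an alternative, 554 kept direction and side of the threshold, and 29 genes did so throughout. Scaling by the library total turned irf2bpl to 0.24, stat3 to 0.059, znf526 to 0.017, znf710a to 0.16 and znf710b to 0.25, and ended the calls of sox19b, sox8b and foxl1, and foxo3a, hoxc11a, klf17 and stat2 then passed both thresholds. Among the 108, the 51 higher calls became 27 with at least 10 counts in every library, where fewer genes are tested, and 44 to 49 with 1 library left out. The 10 lower calls became 17 by adjusted p alone and 7 to 10 with 1 library left out. For the sheet of all genes, 2 higher calls became 6 under the library total, 0 with at least 10 counts in every library, 4 by adjusted p alone and 1 to 3 with 1 library left out, and 0 lower calls became 7 by adjusted p alone. Of the reference list, 60 higher calls became 100 under the library total and 31 with at least 10 counts in every library. They became 105 by adjusted p alone and 49 to 62 with 1 library left out. The 13 lower calls became 7, 9, 70 and 12 to 16 in the same order. The shares over all tested genes moved too, to 23% higher and 2.61% lower under the library total. By adjusted p alone they were 32.7% and 29.9%. Leaving out 1 library also ended the calls of znf1008 (1.66 without PG replicate 2), znf319a (0.98 without PG replicate 3), znf319b (0.94 without PV replicate 2), znf541 (−2.28 without PV replicate 2), sox19b (−0.97 without PV replicate 1), sox8b (−0.95) and foxl1 (−1.04), both without PG replicate 2. Both stages came from the same pools, but same-numbered libraries showed no shared deviation (correlations −0.0149, −0.00508 and 0.0230), and with the replicate block the 108 gave 47 higher and 10 lower calls, the sheet of all genes 1 higher (without klf5a) and the reference list 53 and 13.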

Other observations

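Some counts of 0 stood where the other libraries of the same stage were well above it. At positions where at least 10 counts were expected, znf827 and sox6 were at 0 in PG replicate 3, znf541 in PV replicate 3 and stat1b in PV replicate 2. Over all genes this held for 51 to 131 genes per library, with the most in PG replicate 3.

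In the GRCz12tu annotation 92 of the 108 genes were matched, and 8 of them had another within 10 genes. The pairs were znf1161 with znf1175, znf384l with zbtb22b, zbtb24 with foxo3a, and hoxc11a with hoxc12a. In the first pair znf1161 had a log2 fold change of 0.23 (SE 0.16) and znf1175 of −0.88 (SE 0.24). In the third, zbtb24 was at 1.57 (SE 0.16) and foxo3a at 0.70 (SE 0.06).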
